A study of Mus musculus with 2 samples.

Results

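Levels of 8 genes of the PGC-1 and estrogen-related receptor (ERR) axis were followed by single-nucleus RNA-seq in interscapular brown adipose tissue (BAT). The genes were chosen by symbol among the 32285 genes counted, not by a cut on measured values, but with earlier results of these data known. They are the coactivators Ppargc1a and Ppargc1b, the muscle and fat regulator Perm1, the receptors Esrra, Esrrb and Esrrg, and the downstream factors Nrf1 and Tfam. WT mice were Srsf1 flox/flox littermates without Cre, and KO mice carried Adipoq-Cre; Srsf1 flox/flox, so the floxed Srsf1 alleles were shared by both. Cre was driven by the Adipoq (adiponectin) promoter, which is active in mature adipocytes, and Srsf1 encodes a splicing factor. All mice were males of 8 weeks, and 1 library was made per genotype from an unstated number of mice. A difference between genotypes is therefore also one between 2 libraries, these cannot be told apart, and no test or p-value was possible.

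PGC-1α and PGC-1β, the products of Ppargc1a and Ppargc1b, do not bind DNA themselves. They are recruited by nuclear receptors, among them the ERRs, which recognise a short extended site in DNA and drive genes of mitochondrial respiration and fatty acid oxidation. In brown fat, PGC-1α is induced by β-adrenergic signalling through cAMP and is known for its part in thermogenesis and mitochondrial biogenesis. NRF1 and TFAM act further downstream, NRF1 on nuclear genes of the respiratory chain and TFAM on transcription and packaging of mitochondrial DNA.

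The WT library held 93102814 UMIs (unique molecular identifiers, 1 per captured RNA molecule) in 12846 barcodes, and the KO library 80090208 in 11495, with 52 barcode sequences found in both. Each nucleus was called by the summed UMIs of marker genes, and 66.8% of kept WT and 74.0% of kept KO nuclei received a class. Adipocyte nuclei numbered 5269 in WT, at a median depth of 7304 UMIs, and 1895 in KO, at 6557 UMIs. The other classes were adipose stem and progenitor cells (ASPCs), endothelial, immune, mural, Schwann and skeletal muscle nuclei. Only 67 WT and 24 KO Schwann nuclei and 13 WT and 12 KO muscle nuclei were called. The libraries stood apart in mitochondrial UMIs, with a median share of 1.10% per nucleus in WT and 0.0491% in KO. All 8 adipocyte markers were at a higher level in adipocyte nuclei than in the rest of the same library. The nuclei were called by these same markers, so this excess is in part built in and is no check of the calls. Marker levels differed between the libraries in both directions. Per 1000000 UMIs of the class (CPM), WT and KO adipocyte nuclei held 980 and 1256 of Plin1, 488 and 594 of Cidec and 323 and 2731 of Plin4. They held 5082 and 2822 CPM of Pparg, 3228 and 1739 of Pde3b, 3363 and 2830 of Acsl1, 851 and 796 of Lipe, and 75.3 and 72.1 of Adipoq. Clustered together with no correction for library, adipocyte nuclei of WT and KO lay in different clusters. Of the clusters named adipocyte, 1 held 3711 WT and 1 KO nuclei, 2 smaller ones held 665 and 306 WT against 0 and 1 KO nuclei, and the last held 7 WT and 2043 KO nuclei. Srsf1 was at 178 CPM in WT and 61.4 CPM in KO adipocyte nuclei, a log2 ratio (KO over WT, here and below) of -1.54 (95% interval -1.63 to -1.44). In ASPC, endothelial, immune and mural nuclei, its log2 ratios lay between -0.59 and -0.51. Intervals here and below are exact for counts (Poisson) or for shares and ratios of counts (binomial) and cover counting error only.

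These adipocyte nuclei were called by the same markers but lay in different clusters. Between them, 5 of the 8 genes were lower in KO by at least 2-fold and none was higher by 2-fold. All 8 had the minimum of 50 UMIs over both libraries that a ratio required. Over all 15805 genes that reached this minimum, 18.6% were lower by 2-fold and 16.7% higher, with a median log2 ratio of 0.03. Ordered by size, the lower genes were Ppargc1a, Esrrg, Perm1, Ppargc1b and Esrrb. The order of Perm1 and Ppargc1b was not firm, since the interval of Perm1 (-2.18 to -1.66) held that of Ppargc1b (-1.89 to -1.83). Esrra and Tfam were lower by less than 2-fold, and Nrf1 was higher by less than 2-fold. Of the genes counted, 2.62% had a lower ratio than Ppargc1a, 6.09% a lower one than Esrrg and 27.9% a lower one than Esrra.

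**Figure D1:**
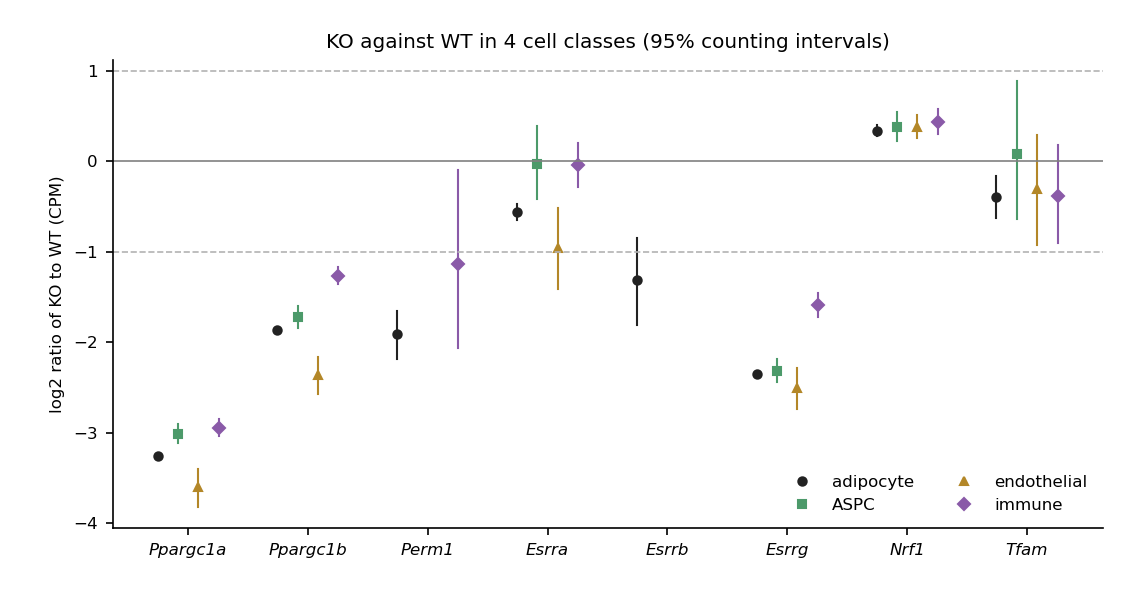
Log2 of KO over WT (y axis, from CPM) for each of the 8 genes (x axis) in adipocyte, ASPC, endothelial and immune nuclei, where both libraries together held at least 50 UMIs. Points are ratios, bars 95% counting intervals and dashed lines a 2-fold difference. Ppargc1a, at -3.26 in adipocyte nuclei, lies between -3.60 and -2.94 in these 4 classes, while Nrf1 lies above 0 in all 4.

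Ppargc1a (ENSMUSG00000029167) lies on the minus strand at chr5:51454250-51567726 of GRCm38. Its promoter is shown because Ppargc1a had the lowest ratio of the 8 and is a known target of cAMP signalling. The stretch below is chr5:51567730-51567814 on the minus strand (RefSeq, GRCm38.p6), which lies wholly before the start of transcription. Capitals mark TGACG, the core of the cAMP response element (CRE), which here reads on the opposite strand and begins 49 bases before the start.
Ppargc1a upstream: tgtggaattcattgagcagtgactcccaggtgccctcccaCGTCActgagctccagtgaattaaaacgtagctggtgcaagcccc

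Both strands were searched in windows of 300 bases, from 250 before to 50 after each start. The core TGACG occurred in 20.8% of the 32851 RefSeq promoters and the full CRE, TGACGTCA, which contains it, in 1.79%. The full CRE was not in the Ppargc1a window. The core was added to the search after the full CRE had been found in none of the promoters searched, and no promoter of Ppargc1b was among them.

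WT adipocyte nuclei held 268520 UMIs of Ppargc1a (4889 CPM) and KO nuclei 8251 (511 CPM). The log2 ratio was -3.26 (-3.29 to -3.23), a WT level 9.56 times the KO level. Nuclei within 1 library differed widely. After thinning each nucleus to 3000 UMIs, which left out 542 WT and 186 KO nuclei, WT nuclei held a median of 10 Ppargc1a UMIs, with 2 at the 10th and 37 at the 90th percentile. KO nuclei held a median of 1, with 0 and 5 at these percentiles and 45 in the highest nucleus. At least the WT median was reached by 52 of 1709 KO nuclei (3.04%). The lower KO level thus came with a shift of nearly the whole distribution, although a few KO nuclei lay well inside the WT range.

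**Figure D2:**
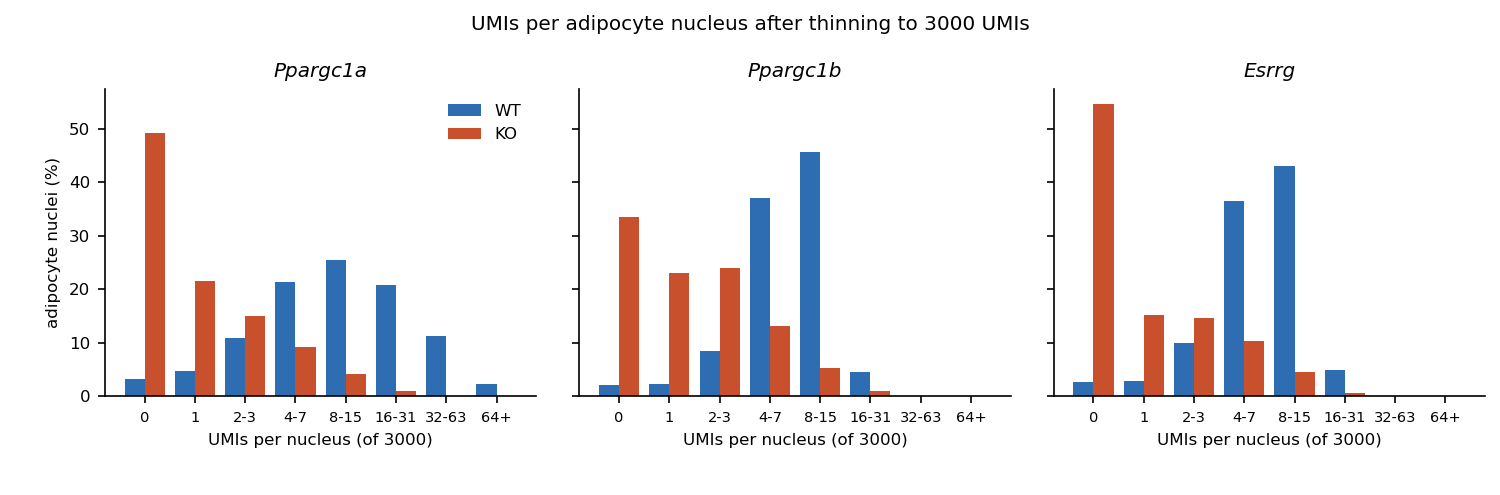
Share of adipocyte nuclei (y axis, %) by the number of UMIs of Ppargc1a, Ppargc1b and Esrrg they held after thinning to 3000 UMIs per nucleus (x axis, bins of unequal width), in WT (4727 nuclei) and KO (1709). For Ppargc1a, 49.2% of KO and 3.26% of WT nuclei held 0.

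Before thinning, 99.1% of WT and 66.4% of KO adipocyte nuclei held at least 1 Ppargc1a UMI. Thinned to 1000 UMIs, the shares were 87.8% (86.8 to 88.6) and 29.1% (27.0 to 31.2). Immune nuclei, which should lack brown adipocyte transcripts, had shares of 37.4% in WT and 4.33% in KO at the same thinned depth, with unthinned median depths of 4366.5 and 4521 UMIs. The adipocyte shares were above the immune shares in both libraries.

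Ppargc1b (ENSMUSG00000033871) encodes PGC-1β, which supports basal oxidative metabolism. WT adipocyte nuclei held 139664 of its UMIs (2543 CPM) and KO nuclei 11281 (699 CPM). The log2 ratio was -1.86 (-1.89 to -1.83), smaller in size than that of Ppargc1a. Thinned to 3000 UMIs, WT nuclei held a median of 8 UMIs and KO nuclei a median of 1. The number of Ppargc1a UMIs per Ppargc1b UMI was 1.92 (1.91 to 1.94) in WT and 0.731 (0.711 to 0.753) in KO adipocyte nuclei, as counted and with no allowance for gene length. This balance differed in the same direction outside adipocytes, from 1.94 in WT to 0.793 in KO ASPC nuclei, from 2.12 to 0.899 in endothelial and from 1.56 to 0.488 in immune nuclei.

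Perm1 (ENSMUSG00000078486, plus strand, chr4:156215868-156221307) is a regulator induced by PGC-1 and the ERRs that was described in striated muscle. Its promoter was the only one among those found for the 8 genes to hold AAGGTCA, the extended site bound by ERRs, which occurred in 4.72% of all RefSeq promoters. The stretch below is chr4:156215685-156215771 on the plus strand (RefSeq, GRCm38.p6). Capitals mark this site, which reads on the opposite strand and begins 202 bases before the start.
Perm1 upstream: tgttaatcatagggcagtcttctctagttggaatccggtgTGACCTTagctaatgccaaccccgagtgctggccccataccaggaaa

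For Perm1, the counts were 1693 UMIs in WT adipocyte nuclei (30.8 CPM) and 132 in KO (8.18 CPM). The log2 ratio was -1.91 (-2.18 to -1.66). Sparse counts limited the reading of single nuclei, since 23.7% of WT and 6.02% of KO adipocyte nuclei held a Perm1 UMI. In immune nuclei these shares were 2.37% and 1.25%. The level in WT adipocyte nuclei was above that in WT endothelial (6.74 CPM), mural, ASPC and immune nuclei, with intervals that did not overlap.

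Of the receptors, Esrrg (ENSMUSG00000026610, plus strand, chr1:187608791-188214885) differed most. ERRγ is the form of the family tied to tissues of high energy demand, such as heart, muscle and brown fat. Its counts were 135818 UMIs in WT adipocyte nuclei (2473 CPM) and 7809 in KO (484 CPM), a log2 ratio of -2.35 (-2.39 to -2.32). Thinned to 3000 UMIs, the median was 7 UMIs in WT and 0 in KO nuclei, and 54.7% of KO nuclei held none. The genes Gm36388 and 9330162B11Rik overlap Esrrg on the opposite strand. Whether the counting used strand is not stated, so that reads of Esrrg and of these genes may not have been separated.

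Esrra (ENSMUSG00000024955, minus strand, chr19:6910977-6921813) encodes ERRα, the form found widely in oxidative tissues. WT adipocyte nuclei held 6698 of its UMIs (122 CPM) and KO nuclei 1337 (82.9 CPM). Its log2 ratio of -0.56 (-0.64 to -0.47) was well short of 2-fold. The intervals of Esrra and Esrrg were far apart, so within the same nuclei the 2 receptors differed between the libraries by unlike amounts. The Esrra value moved when the level outside adipocytes was taken off. Immune nuclei held 61.0 CPM in WT and 59.2 CPM in KO, and when these levels were subtracted the log2 ratio was -1.36. KO endothelial nuclei held only 18.8 CPM of Esrra, so the KO immune level was not a common floor of that library. Esrra overlaps Trmt112 on the opposite strand.

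Esrrb (ENSMUSG00000021255, plus strand, chr12:86361117-86521628), best known from stem cells, was the sparsest of the 8. Only 354 UMIs were counted in WT adipocyte nuclei (6.45 CPM) and 42 in KO (2.60 CPM). The log2 ratio was -1.31 (-1.81 to -0.84), an interval that reached from beyond to less than 2-fold. Of adipocyte nuclei, 5.24% in WT and 1.64% in KO held a UMI, against 3 of 506 WT and 9 of 3601 KO immune nuclei. With white-like adipocyte nuclei left out, defined below, the ratio was -0.90 and no longer past 2-fold.

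The downstream factors did not share the large differences. Nrf1 (ENSMUSG00000058440, plus strand, chr6:30047988-30153458) was counted with 7953 UMIs in WT adipocyte nuclei (145 CPM) and 2954 in KO (183 CPM). The log2 ratio was 0.34 (0.28 to 0.40), opposite in sign to the other 7 genes. Tfam (ENSMUSG00000003923, minus strand, chr10:71225464-71238280) was counted with 831 UMIs in WT (15.1 CPM) and 186 in KO (11.5 CPM), with a log2 ratio of -0.39 (-0.63 to -0.16). Of the genes counted, 63.5% had a lower ratio than Nrf1 and 32.9% a lower one than Tfam. Neither promoter set of Nrf1 nor the promoter of Tfam held any of the motifs searched, which included GCGCATGCG, a site of NRF1 itself found in 1.75% of promoters. The promoters of Esrra and Esrrg held none either, 1 promoter of Esrrb held TGACG in 2 places, and no promoter of Ppargc1b (minus strand, chr18:61298136-61400431) was used. A match is a description of letters, and a window without one says nothing of the factor.

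Transcripts of the axis were not confined to adipocyte nuclei, and the 8 genes differed in how their levels were ordered across classes. In WT, Ppargc1a was highest in adipocyte nuclei at 4889 CPM, followed by 2666 CPM in Schwann and 1979 CPM in skeletal muscle nuclei. Endothelial, ASPC, mural and immune nuclei held 843, 782, 740 and 653 CPM, of which endothelial and ASPC, and ASPC and mural nuclei, had overlapping intervals. In KO, the adipocyte level of 511 CPM was again the highest, and the other classes lay between 68.2 and 162 CPM. Its log2 ratios were -2.94 (-3.04 to -2.85) in immune, -3.01 in ASPC, -3.44 in mural, -3.60 in endothelial and -4.04 in Schwann nuclei. The Schwann class held only 67 WT and 24 KO nuclei, and 83.3% of the KO ones were called doublets. WT Schwann nuclei also held 395 CPM of the adipocyte marker Plin1, against 163 CPM in immune and 228 CPM in mural nuclei. The adipocyte value of -3.26 for Ppargc1a thus lay within the range of the other classes, and the cause was not tested.

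Outside adipocytes, Ucp1 was lower in KO as well, but not in proportion to Ppargc1a. Ucp1, the uncoupling protein of brown fat, was at 428 CPM in WT immune nuclei and 16.2 CPM in KO ones, with a log2 ratio of -4.73. The number of Ppargc1a UMIs per Ucp1 UMI in WT was 2.89 (2.87 to 2.92) in adipocyte, 1.53 (1.41 to 1.65) in immune, 1.31 (1.26 to 1.37) in endothelial and 1.69 (1.55 to 1.83) in ASPC nuclei. In KO this number was 7.92 (7.42 to 8.45) in adipocyte and 5.25 (4.70 to 5.88) in immune nuclei. In WT, the number of Ppargc1a UMIs per Ppargc1b UMI was 1.92 in adipocyte, 1.94 in ASPC and 2.12 in endothelial nuclei, but 1.56 (1.45 to 1.69) in immune nuclei. The part of free RNA in these levels was not tested.

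**Figure D3:**
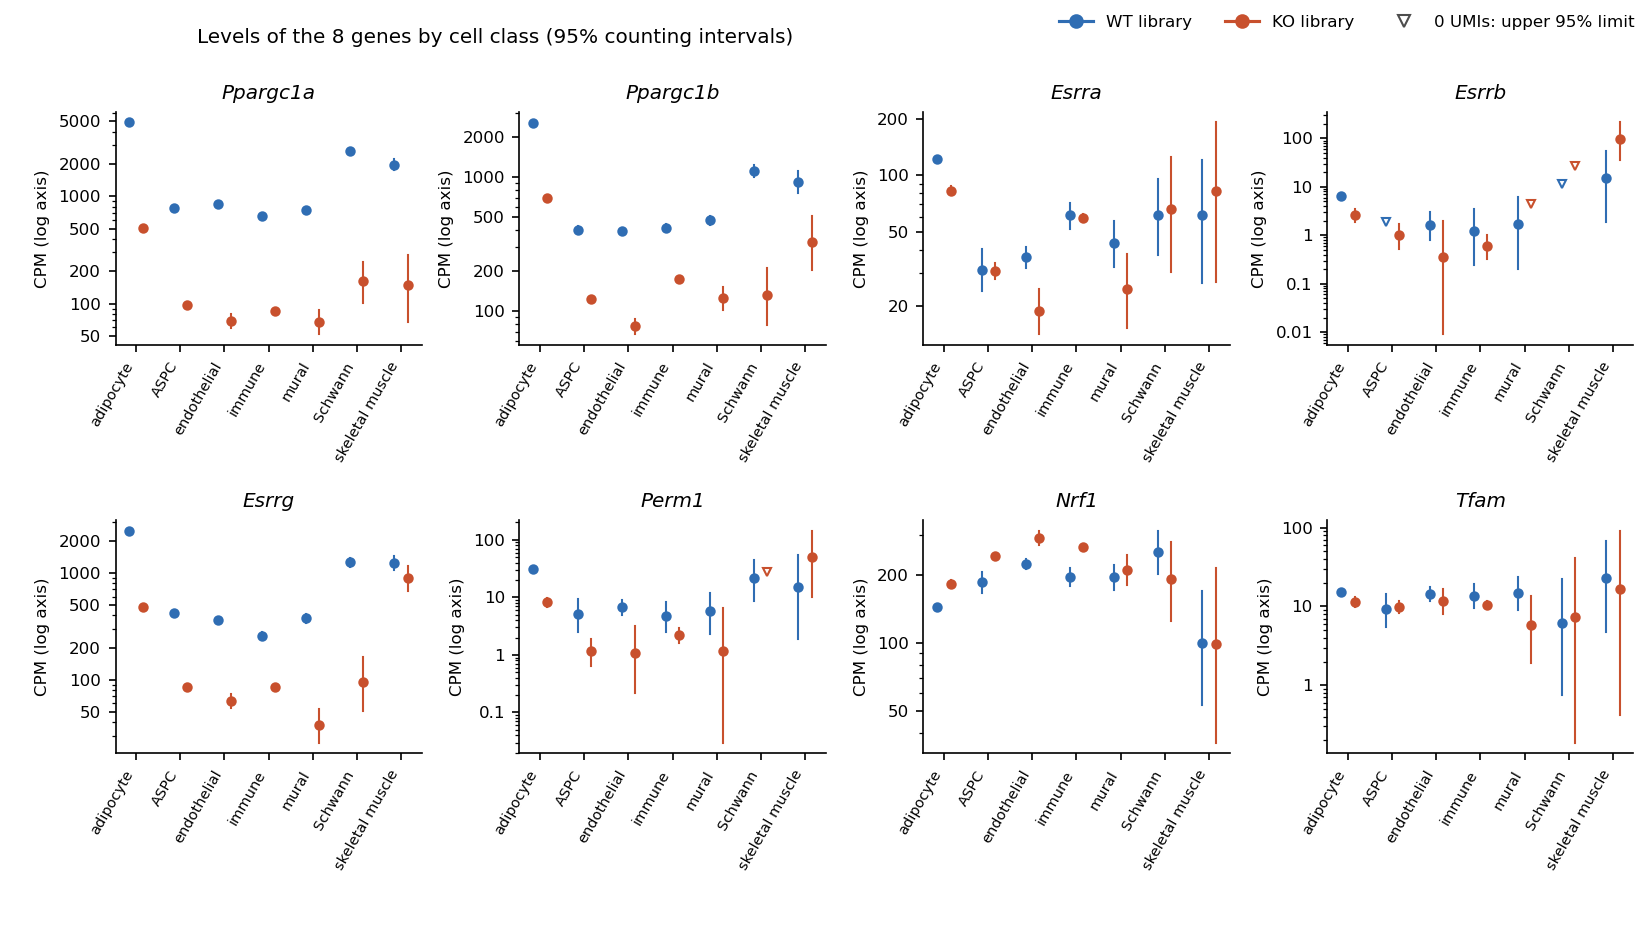
Level of each of the 8 genes (y axis, CPM on a log axis) by cell class (x axis) in the WT and KO libraries. Points are CPM from the summed UMIs of the class, bars 95% counting intervals and open triangles the upper limit where 0 UMIs were found. For Ppargc1a, Ppargc1b and Esrrg, the KO points lie below the WT points in all 7 classes.

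Ppargc1b and Esrrg followed the same order as Ppargc1a in WT for the leading classes, with adipocyte, then Schwann, then skeletal muscle nuclei, although the intervals of the latter pair overlapped. In KO, Ppargc1b was at 174 CPM (169 to 179) in immune nuclei, above ASPC at 122 CPM and endothelial nuclei at 77.1 CPM, with intervals that did not overlap. Its log2 ratio in immune nuclei, -1.26 (-1.36 to -1.16), was the smallest in size of its 7 classes. Esrrg in KO was highest in skeletal muscle nuclei, at 891 CPM (669 to 1163) from 54 UMIs in 12 nuclei, above the adipocyte level of 484 CPM. The WT muscle level was 1235 CPM, so that the log2 ratio of Esrrg in muscle nuclei was -0.47 (-0.94 to -0.02). KO muscle nuclei had the marker Ttn at 31139 CPM and 0 Ucp1 UMIs. This count allows a level of up to 49.5 CPM by the limit of 3 counts (60.9 CPM as the exact upper bound). Ucp1 was at only 64.6 CPM in KO adipocyte nuclei, so its absence cannot show that KO muscle nuclei lacked adipocyte RNA. KO muscle nuclei held 165 CPM of Plin1 from 10 UMIs. WT muscle nuclei held 276 CPM of Plin1 and 852 CPM of Ucp1. The part of adipocyte RNA in the muscle levels of Esrrg was not tested. Muscle and Schwann nuclei were too few for a firm order, and their numbers are given for that reason.

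Nrf1 had another order. In WT it was lower in adipocyte nuclei (145 CPM) than in Schwann, endothelial, immune, mural and ASPC nuclei, which lay between 186 and 253 CPM. Its log2 ratio was 0.38 in ASPC, 0.38 in endothelial and 0.44 in immune nuclei, close to the adipocyte value of 0.34. Tfam levels lay between 6.17 and 23.0 CPM in the WT classes, and the intervals of all neighbours in this order overlapped. Over all kept nuclei together, Ppargc1a was at 3964 CPM in WT and 222 CPM in KO, a log2 ratio of -4.16, a value that joins the differences within classes to the smaller share of adipocyte nuclei in KO, 16.7% against 41.3%.

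Within adipocyte nuclei, those with at least 3 UMIs of the white adipocyte markers Lep, Slc7a10, Npr3 and Nnat, and at least 5 per 10000 UMIs, were called white-like. They made up 10.1% of WT (533 nuclei) and 38.7% of KO (733 nuclei), and 7.17% of WT and 9.23% of KO adipocyte nuclei lay within 1 per 10000 of this limit. White-like nuclei held 4124 CPM of Ppargc1a in WT and 376 CPM in KO, and the other adipocyte nuclei 4979 and 626 CPM. Within white-like nuclei the log2 ratio was -3.46 (-3.51 to -3.40), and in the other nuclei -2.99 (-3.03 to -2.95). For Esrrg the values were -2.38 and -2.11, and for Ppargc1b -1.88 and -1.63. The lower KO levels of these 3 genes were thus present in both kinds of nuclei. White-like nuclei were not alike in the 2 libraries, however. Nnat was at 869 CPM in WT and 189 CPM in KO ones. Lep, Slc7a10 and Npr3 were higher in KO white-like nuclei, with Npr3 at 503 CPM in WT and 1297 CPM in KO. WT white-like nuclei still held 1274 CPM of Ucp1, so the name refers to these 4 markers only.

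Co-variation was described over the 5269 WT adipocyte nuclei by Pearson correlation of depth-corrected residuals, for the 6 genes with at least 1000 UMIs there. These nuclei share 1 library and its free RNA and are not replicates. Ppargc1a and Ppargc1b had the highest r among pairs of the axis, 0.36, followed by Ppargc1b with Esrrg at 0.29 and Ppargc1a with Esrrg at 0.15. The other pairs, each with a sparsely counted gene, lay between -0.07 and 0.09, and nothing was read from them, since sparse counts pull r toward 0. Of these, Esrra with Esrrg had the highest, 0.09, beside a highest r of 0.13 for Esrra with any gene. WT residuals of these 6 genes had r between -0.04 and 0.06 with depth and between -0.04 and 0.04 with the mitochondrial share. In the 1895 KO adipocyte nuclei, where residuals of these genes other than Perm1 kept r between -0.08 and 0.04 with depth, the values were 0.43 for Ppargc1b with Esrrg, 0.29 for Ppargc1a with Esrrg and 0.27 for Ppargc1a with Ppargc1b. On log counts thinned to 3000 UMIs, the 3 values were 0.29, 0.27 and 0.29, so the KO pairs had no firm order. Esrra in KO had r of 0.17 with Ppargc1a and 0.21 with both Ppargc1b and Esrrg, which on thinned counts were 0.12, 0.08 and 0.13.

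The genes nearest to Ppargc1a in WT, among 5827 compared, were Irs2 (r = 0.54), Ppara (0.48), Ugp2 (0.45), Mapkapk2 (0.44) and Noct (0.44), while the median r of all genes was -0.02. Irs2 encodes an insulin receptor substrate, Ppara a nuclear receptor of fatty acid oxidation, Ugp2 an enzyme of glycogen synthesis, Mapkapk2 a kinase downstream of p38 and Noct a circadian protein of the deadenylase family. The lowest r were those of Pik3r1 (-0.34), a regulatory subunit of PI3-kinase, Acaca (-0.31), acetyl-CoA carboxylase of fatty acid synthesis, and Adipor2 (-0.28), an adiponectin receptor, named after their values had been seen. Ppargc1b was nearest to Ppara (0.45), Slc4a4 (0.41), Gk (0.38), Pdk4 (0.38) and Ppargc1a. Esrrg was nearest to Gm36388 (0.32), which overlaps it, then to Ppargc1b, Slc4a4 (0.28), Itpr2 (0.27) and Gk (0.25). For Esrra, Perm1 and Nrf1 no gene exceeded an r of 0.13, and the highest were Rgs7, Gnas and Elmo1.

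WT adipocyte nuclei were also split into tertiles by their Ppargc1a share, with median depths of 7152, 7559 and 7230 UMIs. For the tertiles alone, CPM was scaled to the UMIs of all genes other than Ppargc1a. Ppargc1a was at 1136, 3508 and 9744 CPM, which for Ppargc1a itself is only a description. The level of Ppargc1b was 2089, 2460 and 3055 CPM, and that of Esrrg 2264, 2428 and 2736 CPM. Both were higher in each next tertile, over a far narrower range than Ppargc1a, which defines the tertiles. Esrra was at 127, 120 and 122 CPM, with overlapping intervals. The genes with the highest and lowest r were chosen in these same nuclei, so their levels are a description too. Irs2 was at 155, 313 and 643 CPM, Ugp2 at 255, 459 and 1004 CPM, and Pik3r1 at 887, 617 and 346 CPM. Dio2, the deiodinase that activates thyroid hormone in brown fat, was at 386, 504 and 751 CPM, and Ucp1 at 1546, 1653 and 1876 CPM. The share of white-like nuclei was 14.4% in the lowest, 7.86% in the middle and 8.08% in the highest tertile.

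Likeness of levels was also described over 14 points, the 7 classes in each library, as the Pearson r of log2(CPM + 1) for 14867 genes. Nearest to Ppargc1a were Slc36a2, an amino acid transporter marking brown fat (r = 0.98), Letmd1 (0.98), Dnajc19 (0.97), A930019D19Rik (0.97) and Idh3a (0.97). Nearest to Esrrg were Bbof1 (0.99), Acad11 (0.97), the vascular growth factor Vegfa (0.97) and Bnip3 (0.97). The points share libraries and free RNA.

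The genes around the axis were read as lists chosen by known function, in adipocyte nuclei and with at least 50 UMIs. Of 23 regulators of PGC-1, 4 were lower by 2-fold (17.4%, against 18.6% of all genes), 1 was higher (4.35%, against 16.7%) and 18 lay between, with a median log2 ratio of 0.11. The share of lower genes was thus near that of all genes. Lower were Irf4 (-3.79), which partners PGC-1α in thermogenic transcription and went from 95.5 to 6.88 CPM, Flcn (-1.27), Atf2 (-1.25), a factor of the cAMP and p38 route, and Adrb3 (-1.25), the β3-adrenergic receptor. Higher was the CREB coactivator Crtc1 (1.05), followed within 2-fold by the AMP-activated kinase subunit Prkaa1 (0.74) and by Mef2d (0.57). Adrb3 was named after its value had been seen, since it completes the 4.

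Of 24 partners and competitors of PGC-1, 5 were lower (20.8%, against 18.6% of all genes) and 4 higher (16.7%, as over all genes), with a median of 0.18. Both shares were near the background. The lowest were Gabpa (-1.51), the subunit of NRF2 that binds DNA, Prdm16 (-1.40), the brown fat determinant, and Ppara (-1.40). The highest was Nrip1 (1.76; 1.73 to 1.79), the corepressor RIP140 that opposes PGC-1 in fat, at 274 CPM in WT and 928 CPM in KO, followed by Rxra (1.29) and Thra (1.17). Foxo1 (-1.37), Ncoa1 (-1.05) and the third coactivator of the family, Pprc1 (1.13), completed the genes past 2-fold and were named after their values had been seen. Pparg, in this list at -0.85, was also a marker used to call adipocyte nuclei.

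Of 31 known targets, 30 had the minimum of UMIs, and 13 were lower (43.3%, against 18.6% of all genes) and none higher (16.7% of all genes), with a median of -0.93 against 0.03 for all genes. Fgf21, with 29 UMIs, was not counted, and its log2 ratio from these few UMIs was 4.03, above 0. The lowest were the thermogenic genes Dio2 (-8.07), Ucp1 (-4.71) and Cidea (-3.93). Dio2 went from 550 to 2.05 CPM. The highest were Cs, citrate synthase (-0.09), Mfn2, mitofusin (-0.16), and Ckmt2 (-0.28), whose interval included 0. The genes of respiration and fatty acid oxidation were spread between Cs and Cox5b (-2.48), a subunit of cytochrome c oxidase named after its value had been seen, with Idh3a of the citric acid cycle at -1.25. All 30 had ratios below 0. Levels of several targets were also lower in KO immune nuclei, where Dio2 went from 88.3 to 0.387 CPM and Cidea from 191 to 8.98 CPM. Cox5b was at 51.8 CPM in WT and 6.74 CPM in KO immune nuclei, beside 54.8 and 9.79 CPM in adipocyte nuclei. The differences in Dio2, Cidea and Cox5b were therefore not particular to adipocyte nuclei, and the part of free RNA in them was not tested. Not every target was lower in KO immune nuclei, where Mfn2 was at 37.5 CPM beside 34.1 CPM in WT.

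Of 18 genes of mitochondrial DNA maintenance and expression, 4 were lower (22.2%, against 18.6% of all genes), 2 higher (11.1%, against 16.7%) and 12 between, with a median of -0.10, again near the background. Lower were the helicase Twnk (-1.21), the transcription factor Tfb2m (-1.06), Endog (-1.06) and, outside the rule for named genes, Tfb1m (-1.02), while the primase Primpol (1.58) and the protease Lonp1 (1.34) were higher, and Mterf1b was at 0.77. The 13 mitochondrially encoded genes for proteins were all lower, from -5.83 for mt-Nd6, -4.31 for mt-Atp8 and -4.14 for mt-Nd5 to -3.15 for mt-Atp6, with mt-Co1 at -3.34 and mt-Co2 at -3.37. Their summed level was 7478 CPM in WT and 646 CPM in KO. In immune nuclei mt-Co1 was at 1264 CPM in WT and 165 CPM in KO, and in adipocyte nuclei at 1305 and 129 CPM, so this difference was not particular to adipocytes. Mitochondrial transcripts are not made in the nucleus, and the part of RNA outside nuclei in these values was not tested.

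**Figure D4:**
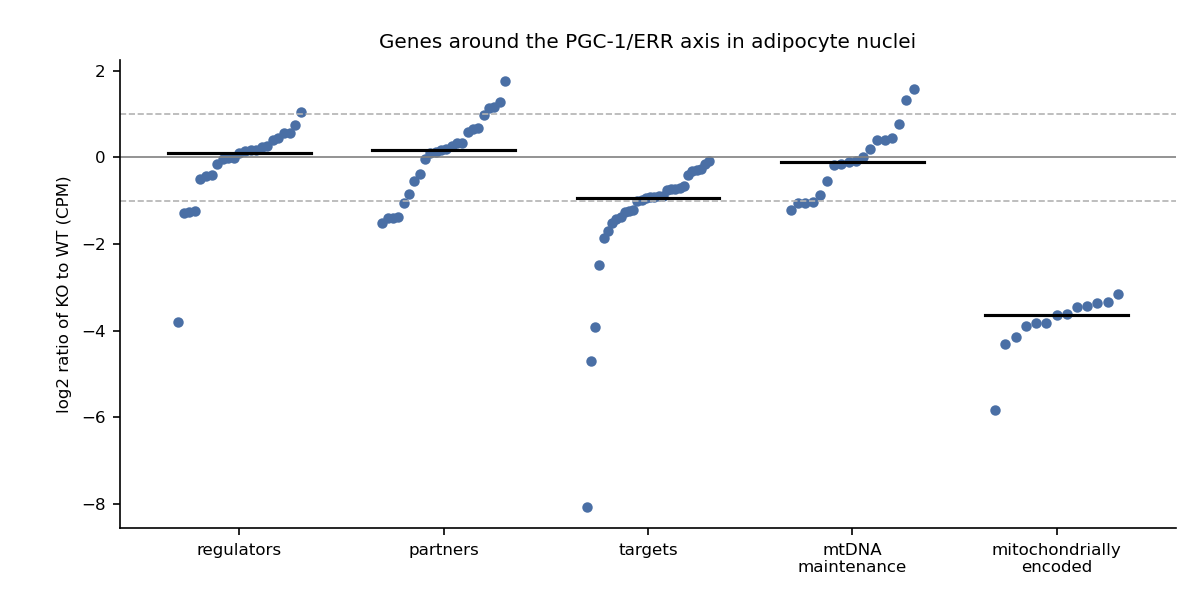
Log2 of KO over WT in adipocyte nuclei (y axis) for the genes of 5 lists (x axis), each point 1 gene with at least 50 UMIs, sorted within its list. Thick bars are list medians and dashed lines a 2-fold difference. All targets lie below 0, while regulators and partners lie on both sides.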

How the data were processed

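Nuclei of WT and KO interscapular BAT were measured by snRNA-seq, with 1 library each. The values that the authors deposited are counts of UMIs for each gene in each barcode, not normalized, made by demultiplexing, alignment to GRCm38 with STAR and counting with Cell Ranger (version 5.0.0 in the headers and in the submitters' processing notes). The methods describe a matrix aggregated at equal depth, which was not used here. Whether introns and strand entered the counting is not stated, and both could change the level of long or overlapping genes.

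A nucleus was kept if it had 200 or more genes, no more than 10% mitochondrial UMIs, and a log number both of UMIs and of genes within 3 scaled median absolute deviations of its library's median. This left 12771 WT and 11378 KO nuclei. Marker UMIs per 10000 were divided by 70 for adipocytes, 25 for ASPC, endothelial and immune, 15 for mural, 10 for Schwann and 100 for muscle nuclei. The class with the highest quotient was called if it was at least 1 and 1.5 times the second, in nuclei of at least 1500 UMIs. These levels and the limit for white-like nuclei were set after the marker sums had been seen. Scrublet called 0 doublets in WT, so its threshold had not worked there, and 20.6% in KO. Doublets were kept. Of the KO Schwann nuclei, 83.3% were called doublets.

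UMIs were summed per class and scaled to 1000000 (CPM). A called difference is 2-fold with at least 50 UMIs over both libraries. Intervals are exact at 95%, and a fold against 0 UMIs is taken against 3 counts. Co-variation used genes with a mean of at least 0.25 UMIs per nucleus. Named genes are the 8 genes, the 3 lowest and 3 highest of each list, the 5 nearest by correlation, the markers and Srsf1, Ucp1, Dio2, Cidea, Plin1, Adipoq and Malat1 as reference transcripts, and exceptions are marked. A gene that this rule names is not reported here. The genes and lists were chosen with earlier results of these data known. Gene places are from release M21 of GENCODE, promoters from RefSeq (GRCm38.p6). Alternatives were other filters, class calls, scalings, subtraction of immune levels, thinning and minimum counts. The steps were tested on simulated data. Tools were Python 3.11.15, numpy 2.4.6, scipy 1.17.1, pandas 2.3.3, scanpy 1.11.5, igraph 0.11.9, scikit-image 0.26.0 and matplotlib 3.10.9.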

Additional observations from a re-analysis of the deposited data

Results flagged for a closer look

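Esrrb went in opposite directions in 2 classes. In skeletal muscle nuclei the log2 of KO over WT was 2.69 (0.21 to 6.03), from 2 UMIs in 13 WT nuclei and 6 UMIs in 12 KO nuclei, whereas in adipocyte nuclei the value was -1.31. The difference between the classes was not tested, and the muscle value rests on few UMIs, below the minimum of 50 used elsewhere.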

How the results depend on the processing

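The direction of all 8 adipocyte ratios was kept under every alternative that gave a value. For Tfam without white-like nuclei, at -0.20 (-0.50 to 0.08), the interval included 0. Over ratios, shares, correlations and list counts, 92 values under alternatives stayed within the counting interval, the interval of r or, for list counts, 1.5 times, and 33 did not. Fixed limits on genes and mitochondrial UMIs gave -3.31 for Ppargc1a, and no filter gave -1.83 for Ppargc1b. Leiden clusters gave -3.35 for Ppargc1a, -1.94 for Ppargc1b, -0.68 for Esrra and -2.41 for Esrrg. The mean over nuclei gave -3.18, -1.77 and -2.25 for Ppargc1a, Ppargc1b and Esrrg, and centring on the median gave -1.89 for Ppargc1b. Subtracting immune levels gave -3.31 for Ppargc1a, -2.02 for Ppargc1b, -2.47 for Esrrg and -1.36, past 2-fold, for Esrra; Nrf1 could not be computed, since its immune levels were higher. Leaving out white-like nuclei, chosen after seeing the data, gave -2.99 for Ppargc1a, -1.63 for Ppargc1b, -0.42 for Esrra, -2.11 for Esrrg and -1.58 for Perm1, and put Esrrb at -0.90, short of 2-fold. An adipocyte marker level of 90, also added then, changed no 2-fold call of the 8 genes.

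Thinned to 500 UMIs, shares with a UMI in WT and KO were 73.7% and 19.6% for Ppargc1a, 68.2% and 18.8% for Esrrg, and 5.81% and 4.80% for Esrra, as fewer UMIs require. At 1000 UMIs, Esrrg was at 85.8% and 27.5% and Esrra at 11.3% and 8.71%. On thinned log counts, Ppargc1a with Esrrg had r of 0.22 and Ppargc1b with Esrrg 0.32. Without white-like nuclei, r was 0.33 for Ppargc1a with Ppargc1b, 0.11 for Ppargc1a with Esrrg and 0.21 for Ppargc1b with Esrrg. With 1 UMI in each library as the only minimum, 1 target (Fgf21) was higher and 4820 of all genes, against 2644 at 50 UMIs and 1740 at 200. The cause was not tested for the other values. No paired analysis was possible because each group had 1 library, and for the same reason no replicate could be left out. Counting error was small for Ppargc1a, Ppargc1b and Esrrg, while Esrrb, Perm1 and Tfam outside adipocytes were limited by depth.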
